A study of Mus musculus with 2 samples.

Results

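The kinesins and the centromere proteins of mouse embryonic stem cells (mESCs) were described from a table of messenger RNA counts. Members were all genes whose symbol starts with Kif and a digit or with Cenp, leaving out Cenpa, which gave 56 of the 22556 genes of the table. They comprised 38 Kif genes and 18 Cenp genes. The 37 motor genes among the former were sorted by textbook role into 12 mitotic kinesins, 13 transport kinesins and 12 other kinesins, and the last, Kif4-ps, is a pseudogene. The 18 Cenp genes were sorted into 13 genes of the inner kinetochore, 2 of the outer kinetochore and 3 others. The mitotic kinesins and the inner and outer kinetochore genes together are called the 27 mitotic genes below.

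Poly(A) RNA was sequenced from 2 replicates of iXist-ChrX-Dom cells, a female mESC line of the strain Dom/129S x Cast. On the Dom/129S allele of these cells a TetOn promoter stands where the endogenous Xist promoter was, so that Xist can be switched on with doxycycline. The cells were untreated (0 h) and had grown in serum and LIF on inactivated fibroblasts that were removed by pre-plating. The study used these libraries to order genes by level before Xist induction. There was 1 group, so no treatment was compared. The labels do not say whether the replicates came from separate cultures, so every p-value below compares only 2 libraries of a single engineered line, and says nothing of the spread between cultures.

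Kinesins are motors that use ATP to walk along microtubules or to take their ends apart. One branch of the family builds and divides the mitotic spindle, and another carries vesicles, organelles and messenger RNA through cells that are not dividing, and is best known from axons and cilia. The inner kinetochore, or constitutive centromere-associated network, sits on centromeric chromatin and recruits the outer kinetochore, which catches spindle microtubules. Genes of mitosis are classically transcribed late in the cell cycle through a CCAAT box and a nearby cell cycle homology region (CHR) at their start sites.

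Sequence around the start sites is shown first, because it holds motifs that the choice of members did not use. The lines give 100 bases before and 20 bases after a RefSeq start site (GRCm38.p6), on the strand of the gene, with the CHR (TTTGAA, or TTCAAA on the other strand) and the CCAAT box (CCAAT, or ATTGG on the other strand) in capitals. The first 6 genes are mitotic genes with a CHR, the next pair are mitotic genes without it, and the last pair are transport kinesins. Their positions are Kif20b at chr19:34922258-34922377 (+ strand), Kif11 at chr19:37376282-37376401 (+ strand), Kif23 at chr9:61946780-61946899 (- strand), Kif15 at chr9:122950981-122951100 (+ strand), Cenpf at chr1:189688067-189688186 (- strand), Cenpw at chr10:30200521-30200640 (- strand), Kif18a at chr2:109280638-109280757 (+ strand), Cenpi at chrX:134307984-134308103 (+ strand), Kif5c at chr2:49619186-49619305 (+ strand) and Kif3a at chr11:53567269-53567388 (+ strand).
Kif20b: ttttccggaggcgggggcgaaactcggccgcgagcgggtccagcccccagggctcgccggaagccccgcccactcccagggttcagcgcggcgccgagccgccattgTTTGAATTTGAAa
Kif11: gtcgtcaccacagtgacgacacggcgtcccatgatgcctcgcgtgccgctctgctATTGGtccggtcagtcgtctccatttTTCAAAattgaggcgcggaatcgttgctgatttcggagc
Kif23: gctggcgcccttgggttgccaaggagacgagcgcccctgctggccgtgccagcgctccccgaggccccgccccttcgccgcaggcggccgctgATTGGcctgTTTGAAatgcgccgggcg
Kif15: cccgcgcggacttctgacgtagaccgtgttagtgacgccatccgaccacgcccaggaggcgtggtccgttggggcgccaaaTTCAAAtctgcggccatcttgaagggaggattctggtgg
Cenpf: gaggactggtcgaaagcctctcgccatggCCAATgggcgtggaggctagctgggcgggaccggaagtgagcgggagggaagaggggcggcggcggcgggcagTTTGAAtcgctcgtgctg
Cenpw: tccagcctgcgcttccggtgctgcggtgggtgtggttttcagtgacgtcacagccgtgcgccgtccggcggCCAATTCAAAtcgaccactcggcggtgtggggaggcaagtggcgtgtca
Kif18a: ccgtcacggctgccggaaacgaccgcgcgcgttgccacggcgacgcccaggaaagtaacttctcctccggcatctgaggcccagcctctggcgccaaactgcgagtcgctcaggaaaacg
Cenpi: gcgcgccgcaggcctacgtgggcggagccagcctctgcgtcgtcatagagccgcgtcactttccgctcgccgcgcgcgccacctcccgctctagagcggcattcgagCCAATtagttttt
Kif5c: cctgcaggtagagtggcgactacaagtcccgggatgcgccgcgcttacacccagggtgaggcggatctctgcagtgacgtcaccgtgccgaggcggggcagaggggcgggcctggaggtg
Kif3a: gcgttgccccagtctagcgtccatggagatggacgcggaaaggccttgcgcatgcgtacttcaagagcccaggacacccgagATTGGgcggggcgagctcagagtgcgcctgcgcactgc

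In Kif20b, a motor of late cytokinesis, the CHR stood at bases 8 and 14 of the transcript as a direct repeat. In Kif23, a motor of the central spindle, and in Cenpf, a protein of the fibrous corona, it began at base 3. In Kif11, the motor that pushes spindle poles apart, and in Kif15, which can back it up, it began 19 bases before the start. In Cenpw the CHR and the CCAAT box shared a base. Kif18a and Cenpi, although among the highest of their lists, had no CHR in these letters.

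Windows of 300 bases, from 250 before to 50 after a start site, were found in RefSeq for 49 of the 56 members. A gene counted as holding a motif if any of its windows held the letters on either strand. The CHR letters were present in 9 of 11 mitotic kinesins (81.8%), in 3 of 13 inner kinetochore genes (23.1%), in 1 of the 2 outer kinetochore genes and in 1 of 10 transport kinesins, Kif1a. Over all 16604 genes of the table with a window the share was 17.6%, and over those with a level of at least 1 TPM (defined below) it was 14.2%. The mitotic kinesins without it were Kif18a and Kif2b. The CHR letters were thus frequent in the mitotic kinesins, while the share of the inner kinetochore genes was near that of all genes.

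The CCAAT letters were present in 7 of 11 mitotic kinesins (63.6%), 10 of 13 inner kinetochore genes (76.9%) and both outer kinetochore genes, but in 3 of 10 transport kinesins (30.0%), against 41.9% of all genes. Both motifs stood together in 10 of 26 mitotic genes (38.5%), in 0 of 10 transport kinesins and in 8.06% of all genes. Of the 10 other kinesins with a window, 2 held the CHR, Kif26b and Kif27, and 4 held the CCAAT box. None of the 3 other Cenp genes held either. A match is a description of letters and not a binding site, and a missing match says only that the letters are not in this window. The plot of motif shares shows the mitotic kinesins apart from the other lists for the CHR, and for the CCAAT box it shows the inner kinetochore genes above the 3 other lists drawn.

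**Figure D1:**
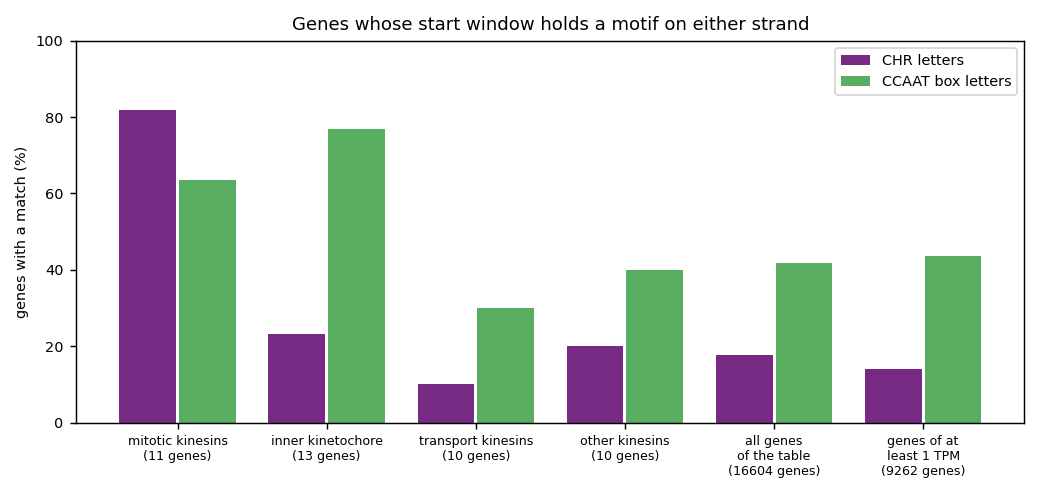
Share of genes (%) whose 300-base start window held the CHR letters (purple) or the CCAAT box letters (green) on either strand, by list, with the number of genes with a window below each name. The CHR share was 81.8% in mitotic kinesins against 17.6% in all genes, and the CCAAT box share was 76.9% in inner kinetochore genes against 41.9% in all genes.

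Replicate 1 held 23716499 counts and replicate 2 held 20275749, and where a gene has no count, 3 counts are taken as its upper limit, which is 0.126 CPM in replicate 1 and 0.148 CPM in replicate 2 (CPM, counts scaled to 1000000 per library). Such limits cover counting error only, because the reads carry no molecular identifiers. Levels between genes are given per length as TPM, computed here from counts per kb of exonic length scaled to 1000000, as mean ± SD over the 2 replicates (n = 2). Of 10 ES cell markers, 9 stood at 10 TPM or more by mean level. Those that differed most between replicates 1 and 2 were Dppa5a (626 and 79.6 TPM), Pou5f1 (110 and 17.2) and Esrrb (102 and 46.0). The tenth, Sox2, was listed at 0 in both libraries, but its level cannot be read, because its span lies wholly inside that of Sox2ot on the same strand (226 and 204 counts). Of 9 fibroblast markers, 1 (Thy1) reached 1 TPM, and the list summed to 59 and 22 counts. Levels in bulk RNA do not tell fewer cells of a type from less RNA per cell.

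Most members were expressed. At least 1 TPM was reached by 46 of 56 members, against 55.3% of all genes, and at least 100 TPM by 16 of 56, against 10.2% of all genes. The 16 were 5 mitotic kinesins, 7 inner and 2 outer kinetochore genes, Kif5b and Cenpv. With span length Kif15, Cenpp, Cenpk, Cenpc1, Cenpu, Cenpe and Cenpv fell below 100 TPM, and Cenpw rose above it. By list, 11 of 12 mitotic kinesins, 13 of 13 inner and both outer kinetochore genes, 11 of 13 transport kinesins, 7 of 12 other kinesins and 2 of 3 other Cenp genes reached 1 TPM. At least 10 TPM was reached by 26 of 27 mitotic genes, 8 of 13 transport kinesins and 3 of 12 other kinesins, against 34.0% of all genes. The plot of levels by gene shows that no kinetochore gene lay below 10 TPM, while the transport and other kinesins reached below 1 TPM.

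**Figure D2:**
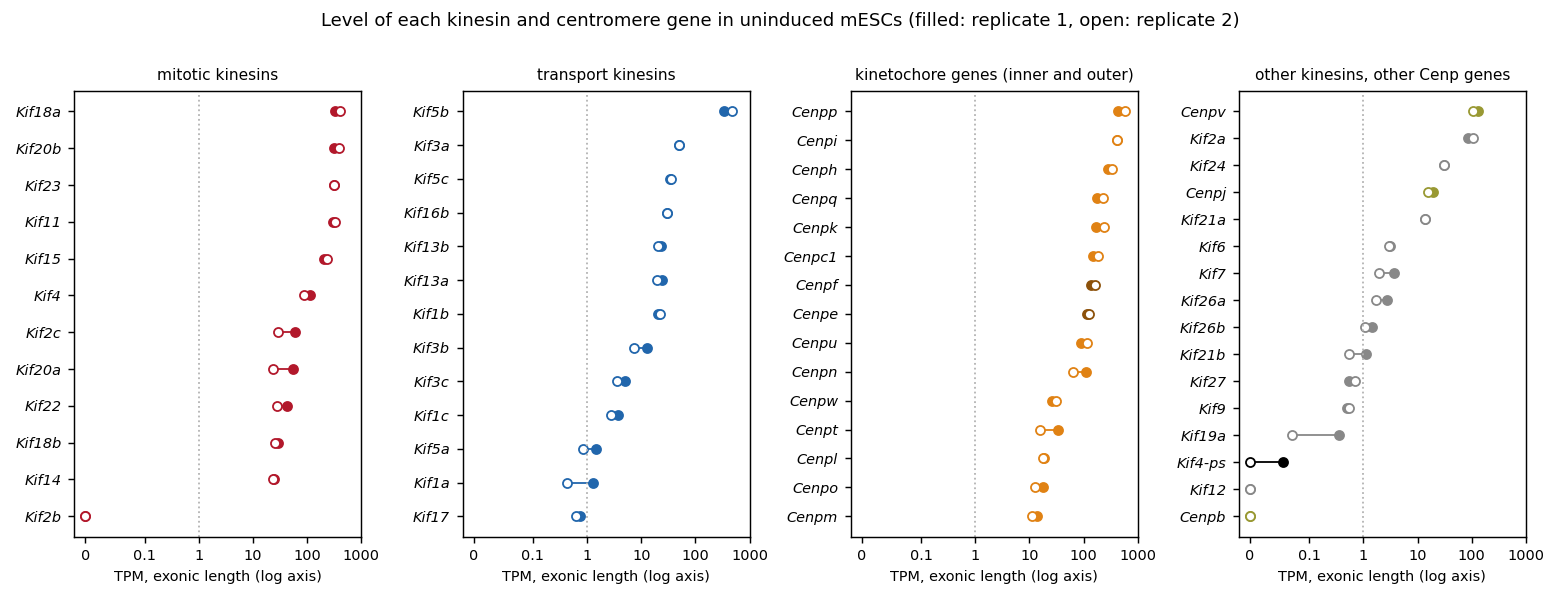
Level of every member in replicate 1 (filled) and replicate 2 (open) as TPM with exonic length on a log axis, by list, with 0 drawn at the left end and 1 TPM dotted. In the third panel inner kinetochore genes are orange and outer ones brown, and in the fourth other kinesins are grey, other Cenp genes olive and the pseudogene black. All 15 kinetochore genes stood above 10 TPM, whereas transport kinesins ran from 0.677 to 409 TPM.

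Among the mitotic kinesins, 4 motors stood above 300 TPM. Kif18a, which dampens chromosome movements at the metaphase plate, had 8335 and 8374 counts in replicates 1 and 2, or 370 ± 58.0 TPM. Kif20b had 12863 and 12897 counts, or 345 ± 53.6 TPM. Kif23, a subunit of centralspindlin, had 8134 and 6430 counts, or 316 ± 3.82 TPM. Together with Kif11, which had 10880 and 9386 counts, or 311 ± 15.5 TPM, they formed a group in which neighbours differed by less than the larger of their SDs. With span length, introns included, Kif23, Kif20b and Kif11 stood at 189, 188 and 172 TPM and Kif18a fell behind them at 107 TPM.

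Kif15 followed at 219 TPM (205 in replicate 1 and 233 in replicate 2) and the X-linked chromokinesin Kif4 at 98.8 ± 17.3 TPM. A lower group held Kif2c, which depolymerises microtubules at centromeres (44.4 ± 21.7 TPM), Kif20a, a motor of the central spindle (39.3 ± 22.4), the chromokinesin Kif22 (35.0 ± 9.81), Kif18b (27.0 ± 2.53) and Kif14, a motor of the midbody (23.6 ± 0.931). Kif14, the lowest of the detected ones, had 1628 and 1238 counts. The SDs of Kif2c and Kif20a exceeded the gaps between Kif2c, Kif20a and Kif22, so the order of these 3 was not resolved. The order of the motors also depended on the length. With span length Kif20a (93.5 ± 50.2 TPM) was no longer below Kif15 (82.1 ± 10.6), and Kif4 (25.3 ± 3.46) was no longer above Kif2c (31.7 ± 14.4) and Kif22 (26.1 ± 6.35), with gaps smaller than the SDs. Kif2b, a paralog of Kif2c, was not counted in either library (0 counts, an upper limit of 0.126 and 0.148 CPM), and no gene of the same strand overlaps it.

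The transport kinesins were led by Kif5b, the ubiquitous heavy chain of kinesin-1, with 15523 and 17357 counts, or 409 ± 94.5 TPM. It was the only transport kinesin above 100 TPM. Kif3a, the kinesin-2 subunit that builds cilia, followed with 1214 and 958 counts, or 49.5 ± 0.660 TPM. Kif5c, a kinesin-1 heavy chain best known from neurons, had 1721 and 1438 counts, or 34.0 ± 0.922 TPM. Kif16b, which moves early endosomes, had 1683 and 1334 counts, or 30.1 ± 0.307 TPM. Each step from Kif5b to Kif16b was larger than the SDs of the neighbours on this scale, but below Kif3a the order changed with the length. With span length Kif5b (319 TPM) and Kif3a (22.6) still led, Kif1b (12.5) stood above Kif5c (7.82), and Kif16b (4.09) stood below Kif3b (6.96) and Kif13b (6.54).

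Kif13b (21.5 ± 1.70 TPM), Kif13a (21.5 ± 3.09) and Kif1b (21.0 ± 1.07), motors of endosomes, vesicles and mitochondria, did not differ from each other beyond their spread with exonic length. With span length they did, at 6.54 ± 0.266, 4.24 ± 0.450 and 12.5 ± 1.11 TPM. Kif3b, the usual partner of Kif3a, stood at 10.0 ± 3.75 TPM, Kif3c at 4.26 ± 1.02, Kif1c at 3.27 ± 0.731 and Kif5a, a neuronal heavy chain, at 1.17 ± 0.447. The lowest were Kif1a, which carries synaptic vesicle precursors, with 83 and 22 counts or 0.847 ± 0.604 TPM, and Kif17, known from dendrites, with 19 and 13 counts or 0.677 ± 0.0772 TPM. Beside these neuronal motors, 6 of 8 neuron markers reached 1 TPM with a median of 4.65 TPM over the list, and their summed level was 253 and 257 TPM, of which Stmn2 made up 224. Map2 stood at 12.1 TPM, Snap25 at 7.66, Nefl at 6.59, Tubb3 at 2.72 and Syt1 at 1.53, and the lowest were Rbfox3 at 0.445 TPM and Dcx with 2 and 5 counts. Their part in the levels of these motors was not tested.

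The comparison of mitotic genes with transport kinesins gave the mitotic genes the higher median. It was 102 TPM over the 27 mitotic genes and 21.0 TPM over the 13 transport kinesins, a log2 ratio of 2.28 (4.85-fold), against 1.85 TPM over all genes. Within the replicates the log2 ratio was 2.47 and 2.55 (SD 0.059, n = 2). The gene at the mitotic median was Cenpn in replicate 1 and Cenpu in replicate 2 and in the averaged levels. Both replicate ratios lie above 2.28, so this SD does not cover the ratio of the averaged levels. Of the mitotic genes, 23 of 27 lay above the transport median, and Kif5b alone of the transport kinesins lay above the mitotic median. In 281 of the 351 possible pairs (80.1%) the mitotic gene was the higher. Within the kinesin family the medians were 71.6 and 21.0 TPM, a log2 ratio of 1.77 (3.41-fold) with 2.08 and 1.58 in the replicates (SD 0.35, n = 2), and 123 of 156 pairs (78.8%) went the same way. Members are not replicates of a condition, so these ratios carry no test.

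The size of the ratio depended on length. The mitotic genes were shorter, with a median exonic length of 3326 bases and a median span, introns included, of 22993 bases, against 6923 and 41975 bases for the transport kinesins. With span length, which is the length deposited with the counts, the medians were 56.7 and 4.24 TPM and the log2 ratio was 3.74. With no length, as CPM, they were 115 and 45.5 and the log2 ratio was 1.34. The direction was the same on the 3 scales, as the plot of these scales shows.

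**Figure D3:**
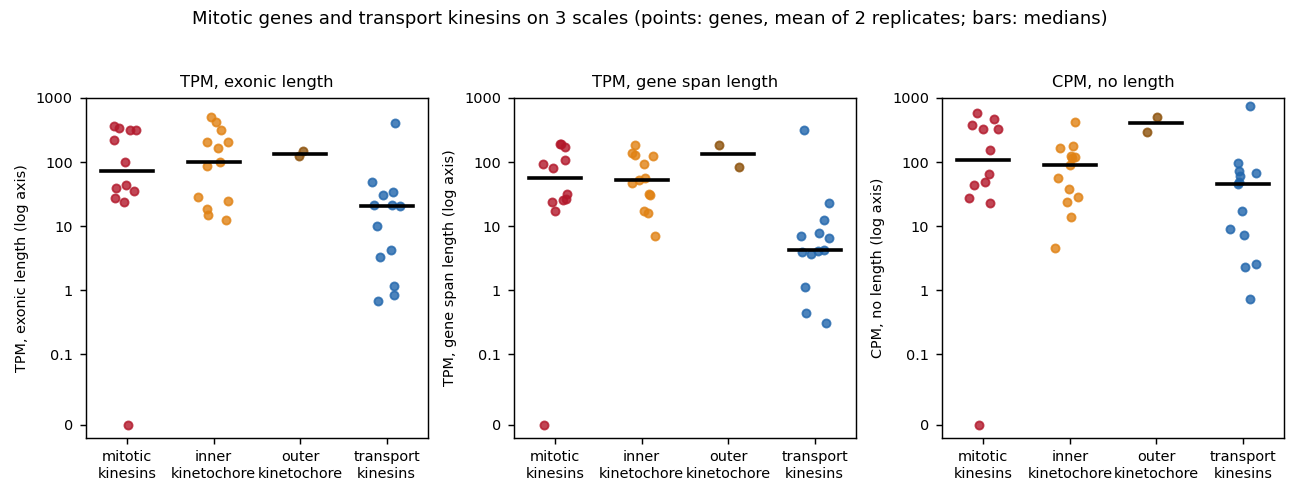
Level of each mitotic gene and transport kinesin (points, mean of 2 replicates) with the median of each list (bars) as TPM with exonic length, as TPM with gene span length and as CPM, each on a log axis with 0 drawn at the bottom. The transport median was 21.0, 4.24 and 45.5 on the 3 scales, below that of every mitotic list, and the highest blue point in each panel is Kif5b.

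As a share of the summed exonic TPM of the 37 listed Kif genes (without Cenpe and the Kifc motors), mitotic kinesins took 72.0% in replicate 1 and 69.4% in replicate 2, transport kinesins 22.2% and 24.7%, and other kinesins 5.79% and 5.91%. Kif5b alone made up 62.5% and 71.4% of the transport share. Within kinesin-1, Kif5b took 90.8% and 93.1% of the summed TPM and Kif5c 8.85% and 6.78%. Within kinesin-2, Kif3a took 73.1% and 81.0%, so its level exceeded that of the partners it binds, Kif3b with 18.6% and 12.2% and Kif3c with 7.28% and 5.84%. With exonic length kinesin-3 was spread more evenly, from 29.7% and 31.7% for Kif16b to 3.71% and 2.91% for Kif1c, with 1.25% and 0.445% for Kif1a. The adaptor Kifap3, which completes the kinesin-2 trimer and lies outside the naming rule, stood at 94.8 ± 6.86 TPM with exonic length, above Kif3a (49.5), and at 14.4 TPM with span length, below Kif3a (22.6).

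Within kinesin-8, Kif18a took 91.9% and 94.2%. Within kinesin-6, Kif20b took 45.1% and 53.2% and Kif23 took 46.8% and 43.5%, and their order turned between the replicates, while Kif20a took 8.10% and 3.26%. The highest gene of kinesin-6 stood 8.78 times above Kif20a with exonic length but 2.02 times with span length. Within kinesin-13, the share of Kif2a, which acts both in spindles and in neurons, was 48.6% and 64.1%, and that of Kif2c was 34.0% and 17.6%. Kif24 took 17.4% and 18.3%, so the order of Kif2c and Kif24 turned between the replicates.

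**Figure D4:**
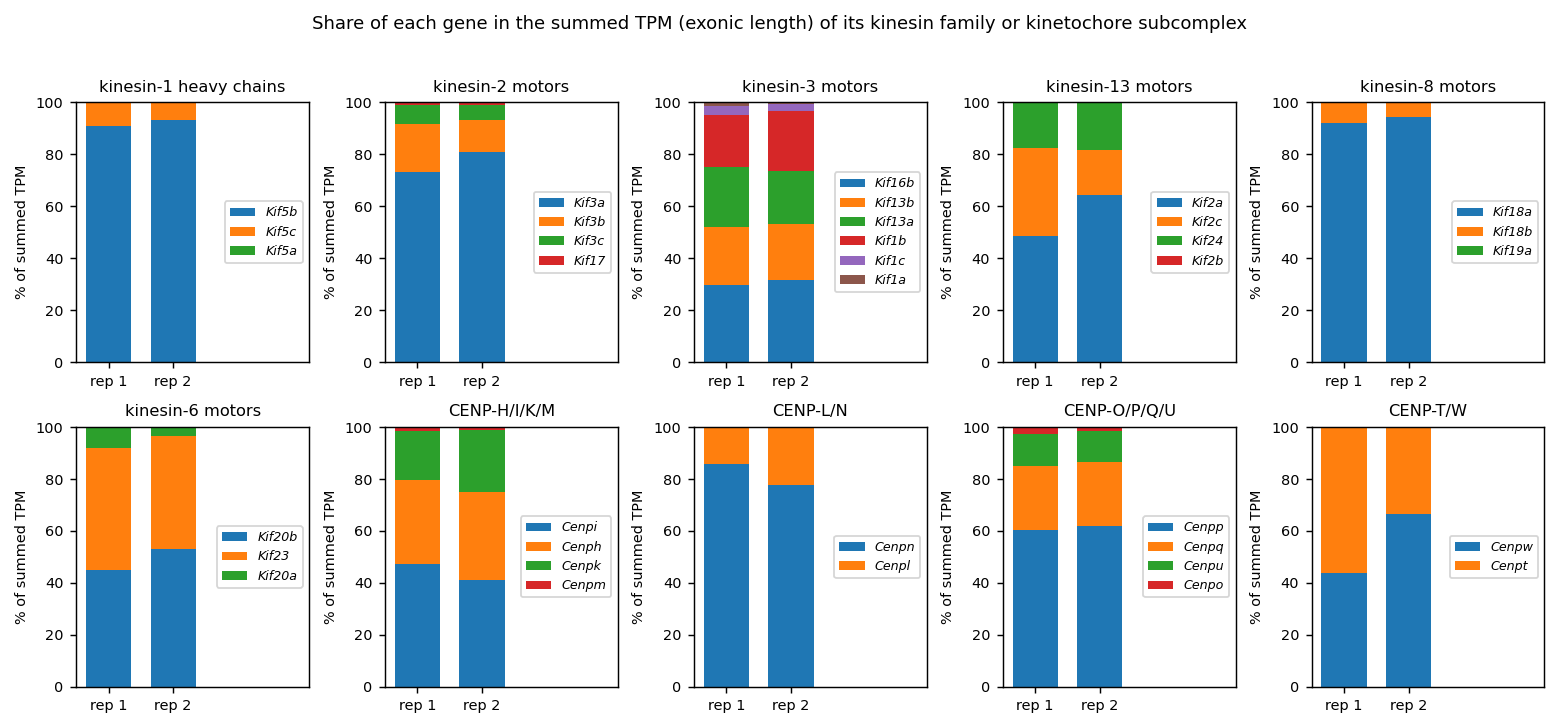
Share (%) of each gene in the summed exonic TPM of its kinesin family or kinetochore subcomplex in replicate 1 and replicate 2, stacked with the highest gene at the bottom. Kif5b held 90.8 and 93.1% of kinesin-1 and Kif18a held 91.9 and 94.2% of kinesin-8, whereas the order of Cenpt and Cenpw turned between replicates.

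Of the other kinesins, with a median of 1.75 TPM, 3 stood above 10 TPM. Kif2a reached 95.6 ± 14.7 TPM, Kif24, a centriolar kinesin that restrains cilium formation, 30.4 ± 0.228 TPM and Kif21a 13.8 ± 0.0292 TPM. Kif7, a regulator of Hedgehog signalling at the cilium tip, stood at 2.83 ± 1.25 TPM, and Kif6, Kif26a and Kif26b lay between 1.25 and 3.04 TPM. With span length Kif6 (0.190 TPM) and Kif26b (0.228) fell below 1 TPM, while Kif26a (2.26) and Kif7 (4.17) did not. Kif21b, Kif27, Kif9 and Kif19a lay between 0.198 and 0.827 TPM. Kif12 had 0 counts in both libraries, which allows the same 0.126 and 0.148 CPM. Of 7 markers of motile cilia, 3 reached 1 TPM and the master regulator Foxj1 had 2 and 1 counts. The pseudogene Kif4-ps had 1 and 0 counts.

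All 13 inner kinetochore genes were detected, with a median of 102 TPM. Cenpp was listed highest, with 3747 and 4014 counts or 508 ± 102 TPM, but its rank rests on the length. Its span of 188674 bases is 165 times its exonic length, counts were taken over the whole span, and with span length it stood at 16.1 TPM. Cenpi had 10259 and 8072 counts, or 418 ± 6.44 TPM, and remained high with span length at 129 ± 2.96 TPM. Cenph had 2698 and 2565 counts, or 313 ± 37.0 TPM, and Cenpq 2627 and 2709 counts, or 205 ± 35.9 TPM.

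Cenpk (205 ± 51.7 TPM), Cenpc1 (166 ± 20.7), the scaffold that joins the centromere to the outer kinetochore, and Cenpu (102 ± 16.3) followed. Cenpn, which reads the centromeric nucleosome, stood at 87.5 ± 34.7 TPM, and Cenpw (28.9 ± 3.25), Cenpt (34.0 in replicate 1 and 15.6 in replicate 2) and Cenpl (18.3 ± 0.440) were lower. The lowest were Cenpo, with 674 and 378 counts or 15.2 ± 3.82 TPM, and Cenpm, with 123 and 81 counts or 12.4 ± 1.74 TPM. With exonic length Cenpq and Cenpk did not differ beyond their spread, nor did Cenpw and Cenpt. With span length Cenpw (140 ± 21.1 TPM) lay near Cenpi (129 ± 2.96) and above Cenpt (31.7 ± 15.6).

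Proteins that work in a fixed complex had unequal transcript levels, and how unequal they were depended on the length. In the CENP-H/I/K/M complex the highest gene, Cenpi, stood 33.8 times above the lowest, Cenpm, with exonic length and 18.3 times with span length. In CENP-O/P/Q/U, Cenpp stood 33.5 times above Cenpo with exonic length, but with span length Cenpq was the highest at 181 TPM, 11.3 times above Cenpp, and Cenpp (16.1 TPM) lay below Cenpo (17.4). Itgb3bp, the gene of CENP-R in this complex, lies outside the naming rule and these ratios. It stood at 39.7 TPM with exonic length and at 9.12 TPM, below Cenpp, with span length. In CENP-L/N the ratio of Cenpn to Cenpl was 4.78 with exonic and 1.56 with span length. In the histone-fold pair CENP-T/W the ratio of Cenpw to Cenpt was 1.17 with exonic and 4.43 with span length. With exonic length Cenpt took 56.1% of its pair's sum in replicate 1 and 33.3% in replicate 2.

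The outer kinetochore genes were both high. Cenpf had 11300 and 10906 counts, or 149 ± 19.1 TPM, and Cenpe, the kinesin that moves chromosomes to the metaphase plate, had 7008 and 6040 counts, or 122 ± 5.98 TPM. Their order held in both replicates. Of the other Cenp genes, Cenpv stood at 116 ± 18.3 TPM and Cenpj, a centriole protein, at 17.4 ± 2.46 TPM.

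Cenpb, whose protein binds centromeric repeats, had 0 counts in both libraries, but its level cannot be read from these data. Its annotated span (chr2:131177288-131180012, mm10, minus strand) lies wholly inside the span listed for Mir3098 (chr2:131142468-131604824, same strand), and a fragment within both genes is counted for neither unless multiple overlaps are allowed. Mir3098 had 134 and 89 counts. No other member was overlapped on its strand by another gene of the table. The share of 50-base words of a member that also occur in transcripts of genes elsewhere was at most 5.69%, in Cenpw.

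Kinetochore genes with other names stood at a like level. All 28 genes found of 30 listed names, chosen by role, reached 1 TPM, with a median of 84.3 TPM, 24 at 10 TPM or more and 13 at 100 TPM or more. Among the highest were the checkpoint kinase Bub1 (930 ± 123 TPM) and the NDC80 complex subunit Spc25 (511 ± 54.0). The lowest were Hjurp, the chaperone of the centromeric histone (1.24 ± 0.172 TPM), Stra13, the gene of CENP-X (2.60 ± 2.95), the kinase Plk1 (4.75 ± 4.49) and Apitd1, the gene of CENP-S (7.08 ± 2.80). Of 9 kinesin genes with other names, 8 reached 1 TPM, and the minus-end motor Kifc1 stood at 27.5 ± 7.37 TPM beside its close copy Kifc5b at 15.1 ± 5.85 TPM, between which reads may be shared.

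The X-linked members were Kif4 and Cenpi. Among the 530 X-linked genes with at least 1 TPM, ordered from the highest, Cenpi ranked 41 and Kif4, with 4158 and 2608 counts, ranked 155. When these genes were cut into 3 equal groups, both fell into the high group, which began at 83.6 TPM. The study used its own level groups for X-linked genes with allelic data, a different set, so its groups need not match these. With span length Cenpi ranked 106 of 532 and stayed in the high group, and Kif4, at 25.3 ± 3.46 TPM, ranked 272 and fell into the medium group.

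The replicates differed at most members. The counts of each gene were set against the library totals by an exact binomial test (two-sided, Benjamini-Hochberg over 14536 genes), which found 37 of 52 tested members to differ beyond counting noise at 0.05. Of these, 12 were higher in replicate 2, against a background of 15.1% of all genes tested, and 25 were lower, against 45.7%. With TMM factors, which shift every log2 ratio by 0.26, the split was 22 higher and 12 lower, beside 28.8% and 28.9% of all genes. With DESeq2 size factors, which shift it by 0.31, it was 24 and 12, beside 31.6% and 26.1%. The direction of a small difference therefore rests on the scaling, and Cenpi and Kif23 passed the test as lower with library totals and as higher with both sets of factors. The test takes reads as independent molecules and compares 2 libraries, not conditions.

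By list, 21 of 26 mitotic genes differed, 10 higher and 11 lower in replicate 2. Of 13 transport kinesins 8 differed, 1 higher (Kif5b) and 7 lower. Over all genes tested 60.8% differed, and the share of the transport kinesins lay near that background. These splits moved with the scaling. The mitotic genes split into 15 higher and 7 lower with TMM factors, 16 and 7 with DESeq2 size factors and 6 and 12 after the GC trend, and the transport kinesins into 5 higher and 2 lower under each of the 3. The background was 28.8% higher and 28.9% lower over all genes with TMM factors, 31.6% and 26.1% with DESeq2 size factors and 22.9% and 21.7% after the GC trend. In either direction it was 57.7%, 57.8% and 44.6%. In the same libraries 8 of 9 tested ES cell markers were lower in replicate 2, beside 45.7% of all genes tested, with Pou5f1 at 1129 and 142 counts. With TMM factors 5 of the 9 were lower and 3 higher, with DESeq2 size factors 4 and 4, and after the GC trend 6 and 3. The part of these markers in the differences of the members was not tested. Among members past the threshold, the 3 with the largest differences were lower in replicate 2. They were Kif19a, with 9 and 1 counts (log2 ratio -2.44, exact binomial test, adjusted p = 0.0425, a call lost with TMM or DESeq2 factors, after the GC trend and without a filter), Kif1a, with 83 and 22 counts (-1.67, adjusted p = 3.9e-07), and Kif20a, with 1656 and 567 counts (-1.32, adjusted p = 3.1e-87). Cenpt (-1.21) and Kif2c (-1.13) followed, and the largest difference in the other direction was that of Cenpk (0.43), which no longer passed after the GC trend (0.05). The median log2 ratio over members with at least 50 counts in each library was -0.05 for 26 mitotic genes and -0.18 for 10 transport kinesins, beside -0.17 over all genes, and with TMM factors both turned positive, at 0.21 and 0.07.

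GC content moved with these differences. The median GC content was 43.9% in the mitotic genes, 51.6% in the transport kinesins and 49.1% over all genes. Over the 45 members with at least 50 counts in each library, all from the same pair of libraries, the log2 ratio had a Spearman's rho of -0.79 and a Pearson's r of -0.70 with transcript GC content, and over 9693 genes these were -0.67 and -0.61. The 17 members with up to 45% GC had a median log2 ratio of 0.17 and the 11 members above 52% GC had -0.50. After the trend of all genes was removed, the SD of the members' log2 ratios was 0.306 in place of 0.447, the medians of mitotic genes and transport kinesins were -0.06 and 0.16, and 29 members differed (13 higher, 16 lower), beside 22.9% higher and 21.7% lower over all genes. Kif20a (-1.01), Kif2c (-0.69), Cenpn (-0.64), Cenpt (-0.52) and Kif3b (-0.51) then had the lowest ratios of the 45, as the plot against GC content shows. The part of GC content in the level difference between mitotic genes and transport kinesins was not tested.

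**Figure D5:**
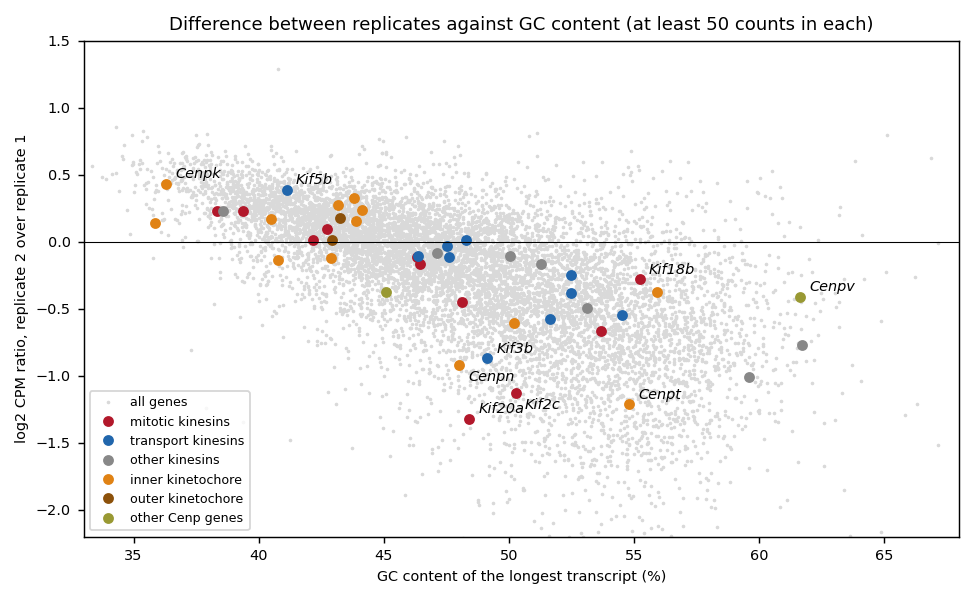
Log2 CPM ratio of replicate 2 over replicate 1 against the GC content (%) of the longest transcript for all genes of at least 50 counts per library (grey, a few beyond the axes not drawn) and for the members (coloured by list). Members run from Cenpk (0.43) at low GC content down to Kif20a (-1.32), which lies with Kif2c, Cenpn, Kif3b and Cenpt on the lower side of the cloud.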

How the data were processed

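Counts were deposited as a table of whole-number fragment counts per gene, which the authors made on mm10 with featureCounts 1.5.2, per the file headers, in reverse-stranded mode over transcript spans, introns included. The deposited length is that span, and its start lies 1 base before the RefSeq start of Kif15. The submitters' processing notes also name STAR 2.4.2a and Bowtie2 2.3.2. The aligner of these mRNA libraries is not given in the sources used here. Columns were matched to samples by the sample description less a letter b. Only the 2 libraries of 1 group (0 h) were used.

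TPM was computed with the union of exons of GENCODE M21 basic (21258 genes matched by symbol, 886 by an older symbol), as counts per kb scaled to 1000000, and averaged over replicates. The 412 genes without a match, 0.214% of counts in each library, were left out of TPM. Replicates were compared by a two-sided exact binomial test (scipy 1.17.1) with Benjamini-Hochberg adjustment over all genes whose 2 counts summed to 10 or more. Log2 ratios of CPM had 0.5 counts added. The GC trend was a polynomial of degree 3 over 9693 genes. Alternatives used span length, CPM, other thresholds, a single replicate, TMM factors (edgeR 4.0.16, R 4.3.3) and DESeq2 1.42.0 size factors. Scripts were tested on simulated data.

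Members and lists were chosen with earlier results of these data known. Counts were printed for the 4 highest and 2 lowest mitotic kinesins, transport kinesins and inner kinetochore genes, all outer kinetochore and X-linked members, members at 0 counts, and the 3 largest replicate differences past the threshold. Kif2c, Cenpn, Cenpt, Kif3b and Cenpk were singled out in the replicate comparison, and the motif windows were picked, after their values were seen.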

Additional observations from a re-analysis of the deposited data

How the results depend on the processing

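The log2 ratio of the median level of mitotic genes over transport kinesins, 2.28 with exonic length, was 3.74 with span length, 1.34 as CPM, 2.38 with members of at least 1 TPM alone, 2.60 as a difference of mean log2(TPM + 1), 2.55 with the transport list widened by Kif2a, Kif21a and Kif21b, and 2.47 to 2.55 when either replicate was left out. It was positive under each. For mitotic kinesins over transport kinesins, 1.77 with exonic length, it was 3.75, 1.25, 2.20 and 2.38 under the first 4 of these, 2.04 with the widened list and 1.58 to 2.08 with either replicate left out. The number of members with at least 1 TPM, 46, was 52 at 0.1 TPM, 39 at 5 TPM, 44 with span length and 45 to 48 with either replicate left out. The number of members that differed between replicates, 37, lay between 29 and 36 under the other scalings and filters, lowest after the GC trend. The direction of single members' differences was less stable than that number. Of the 37, 24 passed in the same direction with TMM factors, 24 with DESeq2 size factors and 15 after the GC trend, while 2, 3 and 7 passed in the opposite direction. Members that passed before or after and changed sign are these. With TMM factors the log2 ratio became positive for Cenpi (0.14), Kif13b (0.0068), Kif14 (0.088), Kif16b (0.15), Kif23 (0.14), Kif24 (0.15), Kif3a (0.14) and Kif5c (0.22). With DESeq2 size factors it became positive for Cenpi (0.19), Kif13b (0.062), Kif14 (0.14), Kif16b (0.20), Kif18b (0.033), Kif21a (0.23), Kif23 (0.20), Kif24 (0.21), Kif3a (0.20) and Kif5c (0.28). After the GC trend it became positive for Cenpv (0.31), Kif13a (0.19), Kif13b (0.33), Kif18b (0.43), Kif1c (0.13), Kif23 (0.042), Kif24 (0.32), Kif26b (0.11) and Kif5c (0.21), and negative for Cenpc1 (-0.062), Cenpe (-0.070), Cenpw (-0.24), Kif11 (-0.12), Kif18a (-0.093), Kif20b (-0.053) and Kif2a (-0.089). The filters on low counts turned no member's direction. The median replicate differences of the lists, which carry no call, changed sign with TMM factors in both lists and after the GC trend in the transport kinesins.

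No paired analysis was possible because only 1 group was sequenced. Depth limits the members under 50 counts, such as Kif19a, Kif27, Kif9 and Kif17, whose levels rest on few reads. Counts over spans hold intronic fragments that an exonic length does not cover, which touches Cenpp most. With 2 replicates, each SD is itself imprecise, and the libraries differ with GC content.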

Other observations

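Of the kinetochore genes with other names, 7 were higher and 16 lower in replicate 2 among 28 tested, beside 15.1% higher and 45.7% lower over all genes tested. The split was 13 higher and 12 lower with TMM factors, 13 and 11 with DESeq2 size factors and 5 and 9 after the GC trend, and the median log2 ratio went from -0.13 to -0.01 after that trend. The passenger complex, which corrects wrong attachments, was lower in replicate 2 at its 4 listed genes, Birc5 (log2 ratio -1.11), Incenp (-0.69), Aurkb (-0.55) and Cdca8 (-0.52). Also lower were Stra13, with 34 and 3 counts (-3.08), Plk1, with 131 and 21 counts (-2.39), and Spc24 (-1.65). So were Apitd1 (-0.91), Pmf1 (-0.82) and Bub1b (-0.79), while Mis18a (0.50) and Casc5 (0.48) were higher. These genes were named after their values were seen. With TMM factors each of these ratios shifts by 0.26. Each passed the exact binomial test between the libraries, which compares 2 libraries and no conditions. After the GC trend Incenp, Aurkb, Cdca8, Apitd1 and Pmf1 no longer passed.

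The kinesin light chains, which link kinesin-1 to cargo, were led by Klc1 at 31.6 ± 7.94 TPM, with Klc4 at 3.39 ± 0.752, Klc2 at 3.32 ± 1.41 and Klc3 at 0.217 ± 0.0334 TPM, so that Kif5b stood above each of its listed light chains.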
